A study of Mus musculus with 52 samples.

Results

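Nampt, Grb14 and Mal are 3 of the 49585 annotated mouse genes whose transcripts were summed, and 3 of the 10 genes whose rise on beta-catenin stabilization was called larger in endothelial cells (ECs) of the posterior pituitary than of the anterior pituitary. They were chosen from that very contrast, so the responses of the pituitary ECs are given here as a description without a test. The study asked whether ECs of leaky organs take on features of the blood-brain barrier when beta-catenin signaling is switched on in them. It covers 52 samples with 2 libraries per group, of which 24 are RNA-seq of sorted cells, 16 are RiboTag RNA-seq and 12 are ATAC-seq of sorted ECs. The sorted cells came from the cerebellum and from both pituitary lobes of male mice. WT mice carried Tie2-GFP, a reporter of ECs and some blood cells, without a Cre. Stabilized mice carried Tie2-GFP, Pdgfb-CreER and BcatEx3fl, an allele of Ctnnb1 that loses its exon for the degradation signal after recombination, and received 100 µg 4-hydroxytamoxifen (4HT) at P10. Genotype, Cre and 4HT therefore cannot be told apart in the sorted cells. Each pituitary library pooled 20 to 30 mice of P30 to P90, and CreER recombines in only a part of the ECs. GFP-positive cells are called ECs and GFP-negative cells parenchyma. RiboTag mice of 6 to 8 weeks all carried RiboTag, an HA-tagged ribosomal protein released by Cre, and Pdgfb-CreER, and the stabilized ones also BcatEx3fl. Both genotypes were injected with 4HT some weeks earlier, at a dose and day not given in the sources used here. Their cerebral cortex, or the choroid plexi of 3 to 4 mice, gave RNA bound to tagged ribosomes and total input RNA.

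Beta-catenin carries the canonical Wnt signal to the nucleus, where it joins LEF/TCF factors at short DNA motifs, and in brain ECs this signal maintains the barrier. The pituitary lobes and the choroid plexus hold ECs that are normally fenestrated and have little of this signal. Nampt encodes nicotinamide phosphoribosyltransferase, the rate-limiting enzyme of NAD salvage. Grb14 encodes an adaptor of the GRB7 family that binds the insulin receptor and inhibits its kinase. Mal encodes a small tetraspan proteolipid of lipid rafts with a MARVEL domain, best known in myelin and at the apical membrane of polarized epithelia.

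The RNA libraries held 17260078 to 33458597 estimated reads in ECs, 12157485 to 37529274 in parenchyma, 6409013 to 21399125 in bound and 7771798 to 21211999 in input RNA. All 12 endothelial markers examined reached 1 TPM in every EC and bound group. They summed to 7609 and 5364 TPM in WT and 2351 and 2070 TPM in stabilized posterior ECs, and to 3475 and 5174 against 3904 and 3215 TPM in anterior ECs. TPM are transcript levels corrected for length and scaled to the same sum in every library. For 1 stabilized EC library of the anterior lobe (replicate 2) the title names the anterior and the tissue tag the posterior pituitary, and it was kept as anterior by its title. Summed endocrine markers were 4682 TPM in stabilized anterior replicate 1 and 4100 TPM in this library, led by Gh at 3467 and 2676 TPM. They were 347 and 810 TPM in stabilized posterior ECs, led by Pomc. Gh also led in WT anterior ECs and Pomc in WT posterior ECs. Summed markers of microglia were 36.6 to 51.5 TPM in WT and 221 to 307 TPM in stabilized posterior ECs, and 17.6 to 26.3 against 168 to 280 TPM in anterior ECs, with all 9 genes at 1 TPM or more in both stabilized groups. Summed markers of macrophages and leukocytes were 0.661 to 12.7 TPM in WT and 113 to 210 TPM in stabilized posterior ECs, and 49.4 and 27.5 against 121 and 182 TPM in anterior ECs. The part of these marker levels in the responses below was not tested, and in bulk samples fewer cells of a type and less RNA per cell cannot be told apart. Pomc, the highest of the endocrine markers in the posterior lobe, was at 470 to 3307 TPM in WT and 330 to 800 TPM in stabilized posterior ECs.

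Among the WT ECs all 3 genes were highest in the cerebellum and lowest in the posterior pituitary. The WT libraries of both lobes entered the choice of the genes. A low WT posterior level enlarges the posterior response, so this order is a description only. Nampt (chr12:32819545-32853349, plus strand, GRCm38) was at 229 and 215 TPM in the WT cerebellum EC libraries, at 39.5 and 43.4 TPM in the anterior lobe and at 28.8 and 23.1 TPM in the posterior lobe. In stabilized ECs it was at 401 and 337 TPM in the cerebellum, at 50.0 and 23.2 TPM in the anterior lobe and at 136 and 94.3 TPM in the posterior lobe. Both stabilized posterior libraries thus lay above every anterior library and below every cerebellum library, and the stabilized anterior libraries enclosed the WT ones. In the order of the 6 EC groups, from stabilized cerebellum through WT cerebellum, stabilized posterior, WT anterior and stabilized anterior to WT posterior, only the last 3 overlapped with a neighbour. The fitted posterior response, as a log2 fold change with its standard error (SE), was 2.46 ± 0.27, and the anterior response was -0.14 ± 0.26. On the same scale WT cerebellum ECs exceeded WT anterior ECs by 2.75 ± 0.28 and WT posterior ECs by 3.01 ± 0.28, whereas the WT lobes differed by 0.26 ± 0.26. The difference between the WT lobes was 0.0093 to 0.58 with each library left out, and it was larger with an offset for transcript length. Stabilized posterior ECs reached 51.9% of the mean TPM of WT cerebellum ECs, from 11.7% in WT, and stabilized anterior ECs stood at 16.5%, from 18.7%.

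Grb14 (chr2:64912476-65024987, minus strand) was all but undetected in WT posterior ECs, with 0 reads in replicate 1 and 2 reads in replicate 2. Stabilized posterior ECs held 795 and 931 reads, or 12.4 and 14.7 TPM. Over the summed reads, corrected for library size, this is a ratio of 1019 with an exact 95% binomial interval of 282 to 8421, which covers counting error only. The fitted log2 fold change of 9.76 ± 0.87 rests on those 2 reads and on the prior count of the fit. In the anterior lobe Grb14 rose from a measurable base, with 1.49 and 2.14 TPM (39 and 44 reads) in WT and 10.1 and 12.4 TPM in stabilized ECs, a fitted log2 response of 3.43 ± 0.58. Without the stabilized anterior replicate 2 this response was 2.53. In summed TPM the stabilized lobes overlapped, with 13.6 ± 1.63 TPM (SD, n = 2) in the posterior and 11.2 ± 1.67 TPM (SD, n = 2) in the anterior lobe. In RPM, reads scaled to library size with no correction for length, they did not, at 35.8 and 38.0 RPM in the posterior against 8.28 and 20.6 RPM in the anterior lobe. WT anterior ECs exceeded WT posterior ECs by a read ratio of 30.9 (8.29 to 259, again counting error only). Both ratios use libraries that entered the choice of the gene. Their intervals are therefore a description and no test of a difference. Both stabilized lobes remained below the 66.7 and 35.5 TPM of WT cerebellum ECs, at 26.5% and 22.0% of their mean.

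Mal (chr2:127633226-127656695, minus strand) reached the highest level of the 3 genes in stabilized posterior ECs. WT posterior ECs held 15.6 and 4.64 TPM and stabilized posterior ECs 327 and 339 TPM, more Mal than any other EC library held. WT anterior ECs held 72.2 and 61.3 TPM and stabilized anterior ECs 162 and 148 TPM. WT cerebellum ECs held 113 and 78.4 TPM and stabilized cerebellum ECs 193 and 211 TPM. The 6 EC groups did not overlap, and the posterior lobe moved from the lowest to the highest place. The fitted log2 response was 5.83 ± 0.45 in the posterior and 1.05 ± 0.37 in the anterior lobe. The posterior value was 6.69 without WT replicate 1 and 5.31 without WT replicate 2, and between 5.80 and 5.86 without a stabilized library. Unlike the other two genes, Mal ended above the WT cerebellum in both stabilized lobes, at 348% of its mean TPM in posterior and 162% in anterior ECs, and WT anterior ECs already stood at 69.7%. The log2 gap between WT cerebellum and WT lobe was 0.50 ± 0.36 for the anterior and 3.56 ± 0.40 for the posterior lobe, the latter 4.41 without WT posterior replicate 1 and 3.04 without replicate 2.

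**Figure D1:**
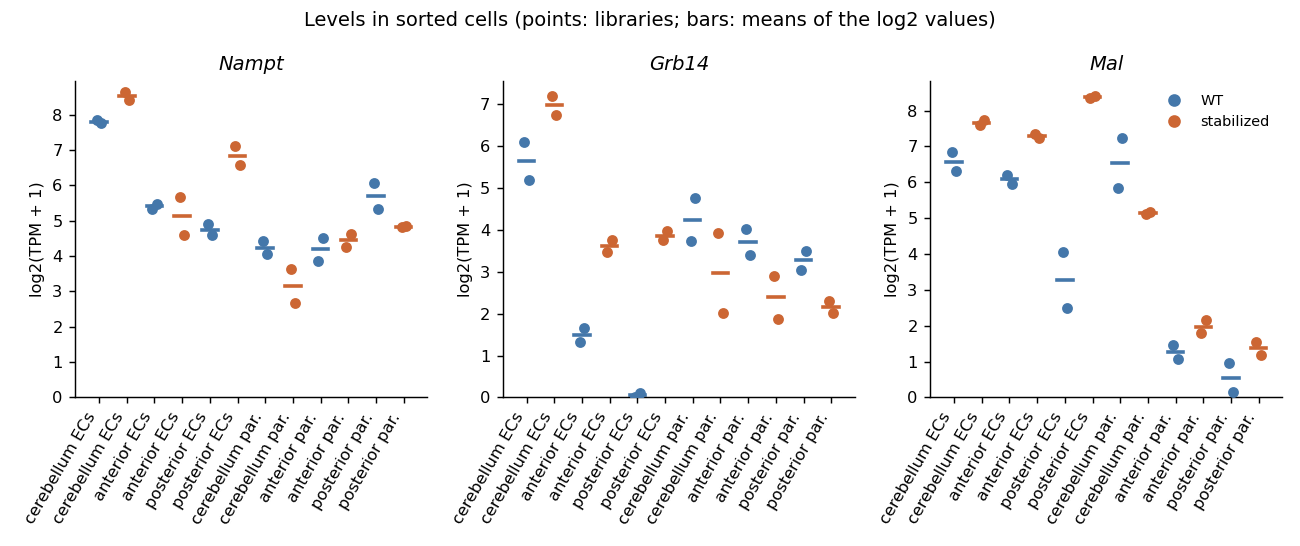
Levels of Nampt, Grb14 and Mal in the 12 groups of sorted cells, as log2(TPM + 1) on the vertical axis. Each point is a library and colours separate WT from stabilized mice. The WT posterior ECs, whose libraries entered the choice of the genes, are the lowest EC group for each gene. Mal reaches 327 and 339 TPM in posterior ECs after stabilization.

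Set side by side, the posterior response exceeded the anterior one by a log2 difference of 6.33 ± 1.03 for Grb14, 4.78 ± 0.54 for Mal and 2.60 ± 0.37 for Nampt. The Grb14 value rests on the 2 reads of WT posterior ECs and was 4.95 without WT posterior replicate 1 and 9.73 without replicate 2. With each library left out the difference was 4.26 to 5.63 for Mal and 2.35 to 2.92 for Nampt, and that of Nampt was larger with an offset for transcript length. On the scale of log2(mean TPM + 1) the posterior and anterior responses were 3.82 and 2.12 for Grb14, 4.91 and 1.2 for Mal and 2.11 and -0.18 for Nampt, so that the gap between lobes was then the smallest of the 3 for Grb14. Ordered by the fitted difference, Grb14, Mal and Nampt held places 3, 6 and 10 among the 10 genes called higher, which are 0.0558% of the 17915 genes tested. In the single lobes 1.25% of genes were called higher in stabilized posterior ECs and 0.441% in stabilized anterior ECs (a call needs at least a 2-fold change besides an adjusted p below 0.05). The members were selected on these libraries, so nothing is read from those shares. Without the anterior replicate 2 whose labels conflict, the differences were 7.25 for Grb14, 4.95 for Mal and 2.49 for Nampt. The posterior and anterior comparisons share no libraries, whereas the comparisons with WT cerebellum share that group's. Both lobes were dissected from the same pituitaries, however, so libraries of equal number may come from the same mice.

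Cerebellum ECs, in which the signal is already active, offer a response that did not enter the choice. Each gene was higher in both stabilized than in both WT libraries, but none was called by edgeR, where 0.648% of 17915 genes were called in either direction. The edgeR log2 responses were 0.94 ± 0.26 for Nampt (adjusted p = 0.20), 0.96 ± 0.52 for Grb14 (adjusted p = 0.54) and 1.16 ± 0.37 for Mal (adjusted p = 0.29). At an unadjusted edgeR threshold of 0.05 Nampt and Mal passed and Grb14 did not. DESeq2 gave Mal a response of 1.2 with an adjusted p of 0.038, and without the filter on low counts edgeR gave 1.18 and 0.0043. In these ECs mural markers summed to 1063 and 877 TPM in WT and 692 and 494 TPM in stabilized mice. Erythrocyte markers summed to 65218 and 7177 TPM in WT and 12307 and 13267 TPM in stabilized mice, and the part of these levels in the responses was not tested. Axin2, a general target of the Wnt signal used as a readout because gene-level counts do not show the loss of an exon, was at 30.2 and 41.5 TPM in WT and 73.9 and 113 TPM in stabilized cerebellum ECs. In posterior ECs Axin2 was at 0.356 and 0.405 TPM in WT and 26.7 and 28.1 TPM in stabilized libraries, and in anterior ECs at 3.10 and 0.0474 against 8.97 and 29.6 TPM.

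**Figure D2:**
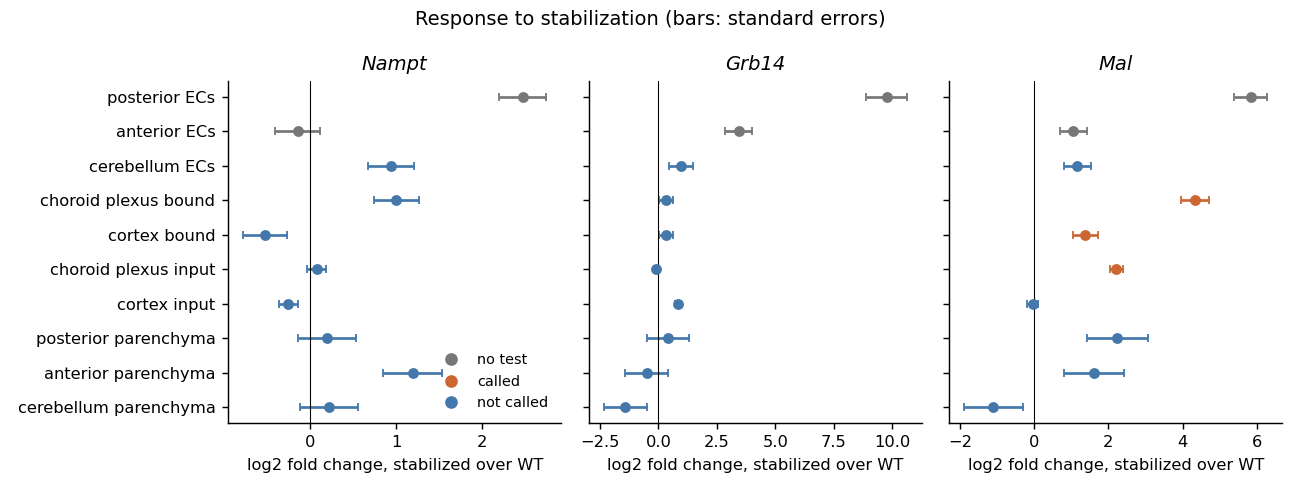
Fitted log2 fold changes of stabilized over WT for each gene, with standard errors as bars and a separate horizontal scale for each gene. Grey points are the pituitary EC responses used to choose the genes and carry no test, orange points were called and blue points were not. Mal was called in bound RNA of both tissues and in choroid plexus input, and the posterior EC response is the largest for each gene.

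Open chromatin around the genes was read from the ATAC-seq peaks, called by the authors in each library alone and kept where both their fold enrichment and their -log10 q exceeded 2. A peak was taken as gained when both stabilized libraries held it and neither WT library did, at a distance of up to 50 kb from the gene. WT posterior ECs had the fewest such peaks (21050 and 20634, against up to 45040 in WT anterior ECs), and 36.9% of 22028 genes had at least 1 gained peak in posterior ECs. Mal had 5 gained peaks in posterior ECs, a number that 2.01% of genes reached. At a fold enrichment and -log10 q over 4 it had 2 gained peaks in each lobe, and with all deposited peaks or an overlap of at least 0.5 of the shorter peak it had 4 in posterior and 1 in anterior ECs. The 5 peaks lay 1008, 6666 and 17131 bp downstream of the gene start, in introns of Mal, and 45129 and 46412 bp downstream, past the end of the gene and nearer to the start of Mrps5. Their fold enrichments were 5.15 and 5.61 at 1008 bp, 4.07 and 2.87 at 6666 bp, 3.95 and 2.87 at 17131 bp, 3.34 and 3.71 at 45129 bp, and 7.77 and 5.74 at 46412 bp. The gene start itself had a peak in 1 of 2 WT posterior libraries (4.12). In anterior ECs Mal had 1 gained peak, the same region at 46353 bp (6.06 and 6.10), where 17.5% of genes had 1 or more. It also had 1 lost peak, 9057 bp upstream of the gene start (3.71 and 3.22 in WT), where 12.1% of genes had a lost one.

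The gained posterior regions of Mal differed in where else they were open. The region near 46 kb had peaks in both WT cerebellum libraries (3.69 and 5.77) but in neither WT anterior library. The regions near 45 kb and 7 kb had peaks in all 4 cerebellum and all 4 anterior libraries. The intronic region near 17 kb was seen in no anterior library of either genotype, in 1 of 2 WT cerebellum libraries (5.73) and in both stabilized cerebellum libraries (9.71 and 9.54). Of all 7437 peaks gained in posterior ECs, 59.4% overlapped a peak of both WT anterior libraries and 31.0% one of both WT cerebellum libraries.

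The letters ATCAAAG and TTCAAAG, which LEF/TCF factors are known to bind, were sought on both strands within 100 bp of the peak summits. They stood in 6.50% and 7.41% of all stabilized posterior peaks, in 3.15% and 3.30% of WT posterior peaks, and in up to 9.70% in the other libraries. Among the gained posterior peaks of Mal the windows at 1008 and 17131 bp held them. The 46412 bp peak held none around its posterior summit, while the window around its anterior summit, 46353 bp from the gene start, held 1 match. These 3 windows, with the Grb14 window described next, are printed on the plus strand of GRCm38 (mm10), with the matching letters in capitals, because they are the windows, of those searched around the peaks near the 3 genes, that held the letters.
Mal, 1008 bp, intron, chr2:127655587-127655787: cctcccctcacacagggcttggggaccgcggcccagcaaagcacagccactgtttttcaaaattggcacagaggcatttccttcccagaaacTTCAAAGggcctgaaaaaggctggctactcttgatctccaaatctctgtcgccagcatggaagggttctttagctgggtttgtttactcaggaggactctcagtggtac
Mal, 17131 bp, intron, chr2:127639464-127639664: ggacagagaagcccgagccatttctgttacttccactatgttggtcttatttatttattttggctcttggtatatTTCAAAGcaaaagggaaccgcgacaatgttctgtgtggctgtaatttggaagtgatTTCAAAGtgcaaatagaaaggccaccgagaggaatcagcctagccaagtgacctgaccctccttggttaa
Mal, 46353 bp, intergenic, chr2:127610242-127610442: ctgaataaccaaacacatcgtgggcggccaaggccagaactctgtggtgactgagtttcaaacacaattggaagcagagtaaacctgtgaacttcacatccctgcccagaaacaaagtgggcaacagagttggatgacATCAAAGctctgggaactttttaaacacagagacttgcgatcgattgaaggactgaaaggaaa
Grb14, -23376 bp, intergenic, chr2:65048263-65048463: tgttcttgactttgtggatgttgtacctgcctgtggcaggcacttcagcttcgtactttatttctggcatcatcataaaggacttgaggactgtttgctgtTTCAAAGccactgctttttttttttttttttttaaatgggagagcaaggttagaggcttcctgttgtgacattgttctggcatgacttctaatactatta
The window at 17131 bp holds 2 copies and the others 1 copy each.

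Grb14 had no gained and no lost peak in any of the 3 tissues. Its promoter held a peak in 12 of 12 libraries, with fold enrichments of 8.91 and 5.82 in WT posterior ECs against 13.5 and 11.6 in stabilized ones, and of 11.0 and 9.80 in WT anterior ECs against 18.4 and 18.7 in stabilized ones. The promoter was thus already open in WT posterior ECs, in which 0 and 2 reads were counted. A region 23376 bp upstream had peaks in both libraries of each genotype in the cerebellum and the anterior lobe, at 5.46 and 4.54 in WT anterior ECs against 10.7 and 11.4 in stabilized ones. In the posterior lobe it was seen only in stabilized replicate 2 (4.31). Fold enrichment is relative to the background of each library and was not tested between groups.

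Nampt had a promoter peak in 12 of 12 libraries, with fold enrichments of 11.7 to 14.8. Its 1 gained posterior peak lay 37276 bp from the gene start, past the gene's end (5.97 and 4.96), and the same region held stronger peaks in all 4 anterior libraries (8.94 to 12.0) and none in the cerebellum. Its 1 gained cerebellum peak lay in an intron at 7626 bp (5.90 and 3.99), where 31.6% of genes had a gained peak. The same region held a peak in both stabilized anterior libraries (4.39 and 6.50) and in WT anterior replicate 2 (4.68). None of the 3 genes' promoters, 300 bases each from RefSeq on GRCm38.p6, held the letters, which 8.65% of 32851 promoters did.

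**Figure D3:**
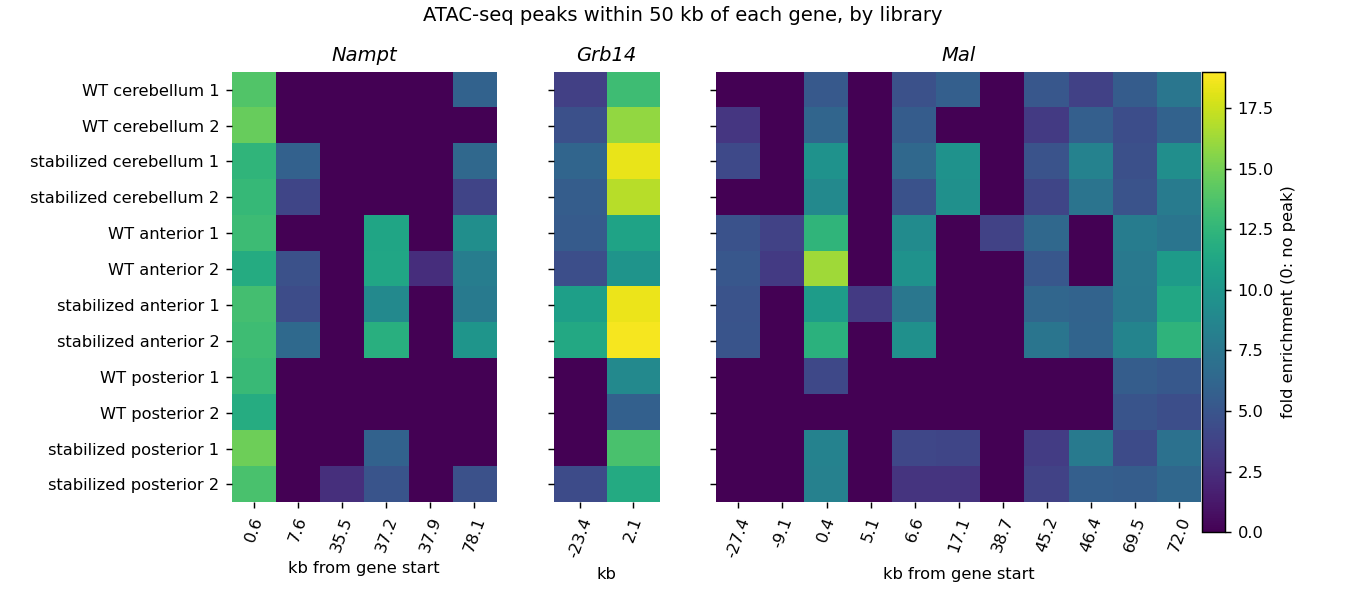
Fold enrichment of every peak region within 50 kb of Nampt, Grb14 and Mal (colour, 0 where no peak was kept) in the 12 ATAC-seq libraries in rows. Columns are regions by their distance in kb from the gene start, negative upstream. Both WT posterior rows are empty over most Mal regions that carry colour in the stabilized posterior rows, and the promoters of Nampt and Grb14 are coloured in all rows.

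The transcripts behind these sums differ in length, and for Nampt this matters. Nampt has 3 annotated transcripts, of which Nampt-201 (4527 nt) is the protein-coding one, while Nampt-202 (411 nt) and Nampt-203 (1024 nt) are a processed transcript and a target of nonsense-mediated decay. Nampt-201 alone was at 14.3 and 6.34 TPM in WT and 38.3 and 36.5 TPM in stabilized posterior ECs, at 11.8 and 9.27 against 13.8 and 8.95 TPM in anterior ECs, and at 64.8 and 89.2 against 165 and 136 TPM in cerebellum ECs. By the coding transcript too, both stabilized posterior libraries lay above every anterior and below every cerebellum library, whereas the WT lobes overlapped. With an offset for transcript length the fitted posterior response of Nampt was 3.0. Grb14-201 (1986 nt), the longest of the coding transcripts of Grb14 examined, was at 0 in both WT anterior libraries, where the shorter coding Grb14-208 (813 nt) was at 1.49 and 1.90 TPM. Grb14-201 was at 1.70 and 8.35 TPM in the stabilized ones, and at 10.4 and 13.6 TPM in stabilized posterior ECs. Mal-202 (2778 nt) carried nearly all of the Mal signal in sorted ECs.

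**Figure D4:**
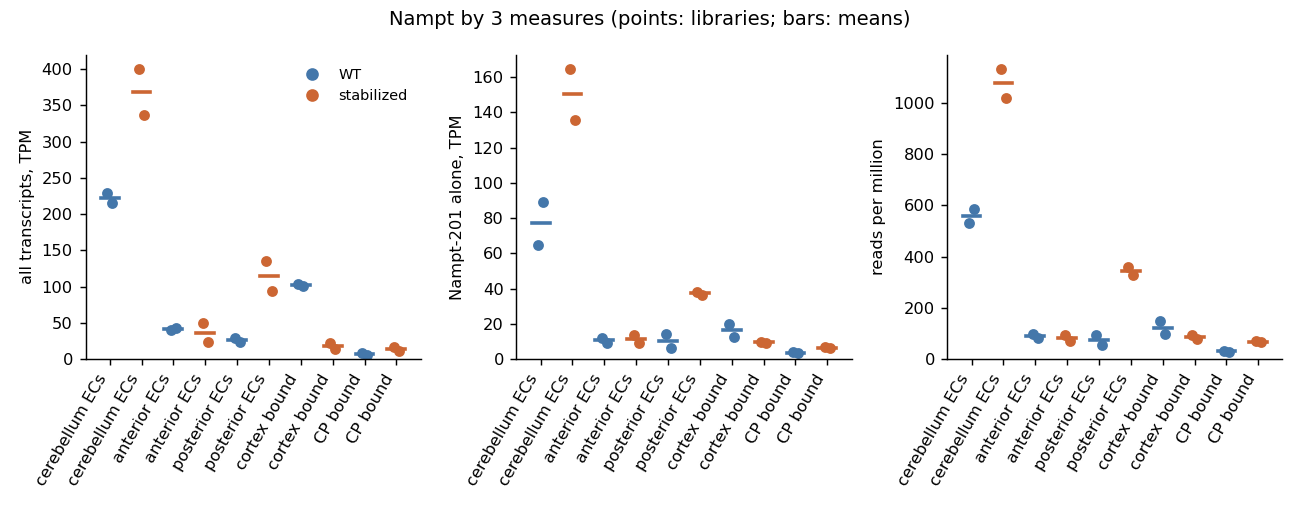
Nampt in EC and bound RNA by 3 measures, the summed TPM of all transcripts, the TPM of the coding Nampt-201 alone and the estimated reads scaled to library size. Points are libraries and bars group means, and CP is choroid plexus. Stabilized posterior ECs stand above both lobes' other groups by each measure, while the fall in stabilized cortex bound RNA is large only in the summed TPM.

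In the parenchyma none of the 3 genes was called on stabilization in any tissue, where edgeR called 0.76% of 19612 genes in the cerebellum, 0.0408% in the anterior and 0.133% in the posterior lobe. Of these 9 responses, 2 passed an unadjusted edgeR threshold of 0.05, Nampt in the anterior lobe (log2 response 1.19 ± 0.34, adjusted p = 0.53) and Mal in the posterior lobe (2.24 ± 0.83, adjusted p = 0.38). Without WT replicate 1 the Mal response there was 5.13 (adjusted p = 0.0026). DESeq2 called Nampt in the anterior parenchyma, with 1.2 and an adjusted p of 0.023. Mal was at 0.927 and 0.109 TPM in WT and 1.93 and 1.26 TPM in stabilized posterior parenchyma, below all ECs of that lobe, and at 1.11 to 3.46 TPM in anterior parenchyma, below all ECs of the anterior lobe. In the cerebellum, by contrast, Mal was at 56.1 and 150 TPM in WT parenchyma, which holds myelin-forming oligodendrocytes (summed markers 1534 and 3923 TPM). In posterior ECs the oligodendrocyte markers summed to 26.5 and 10.0 TPM in WT and 9.81 and 14.5 TPM in stabilized mice, and in anterior ECs to 9.59 and 22.3 against 18.7 and 16.6 TPM. Cnp was the highest of the 12 in each of these groups, at 5.24 to 24.4 TPM, whereas Mag was at most 0.121 TPM and Olig1 was at 0 in 7 of 8 of these libraries and at 0.0155 TPM in the last. Of the 12 markers, 3 reached 1 TPM in WT and 4 in stabilized posterior ECs, and 1 in WT and 2 in stabilized anterior ECs. Their part in the Mal levels was not tested.

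Between ECs and parenchyma of the cerebellum, Nampt was higher in ECs by a log2 difference of 3.34 ± 0.32 in WT (edgeR adjusted p = 2.5e-06) and 4.03 ± 0.33 in stabilized mice (adjusted p = 2.2e-07). Grb14 was called higher in ECs of stabilized mice (4.43 ± 0.83, adjusted p = 0.00089) and was not called in WT (2.11 ± 0.75, adjusted p = 0.080). Mal was called in neither (-0.60 ± 0.70 and 1.62 ± 0.71, adjusted p = 0.69 and 0.14), and its WT value turned to 0.83 without WT parenchyma replicate 2 and was -1.23 without replicate 1. These WT parenchyma libraries stood apart, with Ttr at 0.0397 TPM in replicate 1 and 3514 TPM in replicate 2. Erythrocyte markers summed to 20722 and 237 TPM in them, and astrocyte and pituicyte markers to 7579 and 2112 TPM. The Grb14 value of stabilized mice was 5.71 without stabilized parenchyma replicate 1. With a term for each pool of tissue, Mal was called higher in stabilized ECs (1.68, edgeR adjusted p = 0.048). In these comparisons 4.46% of 21343 genes were called higher in WT and 7.26% in stabilized ECs. In the posterior lobe, as a description, the log2 difference of ECs over parenchyma went from -0.05 ± 0.29 in WT to 2.3 ± 0.30 in stabilized mice for Nampt, and from 3.68 ± 0.78 to 7.35 ± 0.92 for Mal. With the length offset the Nampt values were -1.18 and 2.0. The WT value of Mal was 6.72 without parenchyma replicate 1, 2.94 without parenchyma replicate 2 and 2.97 without EC replicate 1, and the stabilized value was 7.18 to 7.61 with each library left out. For Grb14 the difference changed sign, from 7.28 and 10.3 TPM in parenchyma against 0 and 0.0688 TPM in ECs of WT mice to 3.89 and 3.06 against 12.4 and 14.7 TPM in stabilized mice. In the anterior lobe the log2 difference went from 0.90 ± 0.29 to -0.37 ± 0.29 for Nampt and from 5.86 ± 0.86 to 5.34 ± 0.84 for Mal. That of Grb14 went from -3.31 ± 0.79 to 0.67 ± 0.72 there, the latter -0.22 to 1.35 with each library left out. The length offset turned the sign of the stabilized anterior value of Nampt.

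RiboTag RNA, from libraries that did not enter the choice, covers a further leaky bed, the choroid plexus, beside the barrier vessels of the cortex. In bound RNA of the choroid plexus Mal was at 2.51 and 3.99 TPM in WT and 102 and 58.0 TPM in stabilized mice. The groups lay far apart, and Mal rose by a log2 fold change of 4.33 ± 0.38 (edgeR adjusted p = 0.0019), where 0.656% of 16775 genes were called higher. In bound RNA of the cortex Mal was at 95.2 and 49.4 TPM in WT and 110 and 138 TPM in stabilized mice, and rose by 1.38 ± 0.33 (adjusted p = 0.041), where 6.32% of genes were called in either direction. The choroid plexus response exceeded that of the cortex by 2.94 ± 0.48 (adjusted p = 0.022), where 0.864% of genes were called higher. The WT level stood the other way, higher in the cortex by 3.51 ± 0.36 (adjusted p = 0.00016), in a comparison that called 29.7% of genes. Axin2 was called higher in stabilized cortex bound RNA (2.66 ± 0.27, edgeR adjusted p = 0.0012) and not in choroid plexus. Its choroid plexus minus cortex difference was -1.70 ± 0.36 (adjusted p = 0.047). Its WT cortex over choroid plexus value was -1.51 ± 0.26 (adjusted p = 0.0021). Of 9 general Wnt targets tested, 3 were called higher and 1, Axin2, lower in the former contrast, and 5 and 1 in the latter.

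The cortex response of Mal differed between its transcripts and between libraries left out. Mal-202 alone was at 95.2 and 49.4 TPM in WT and 79.5 and 86.4 TPM in stabilized cortex bound RNA, which overlap, and the short Mal-201 (486 nt) was at 0 in WT and at 30.2 and 52.0 TPM in stabilized libraries. Without WT replicate 1 the edgeR cortex response was 1.90 (adjusted p = 0.0029), but it was not called without WT replicate 2 (1.02, adjusted p = 0.064) or without stabilized replicate 1 or 2 (1.45 and 1.32, adjusted p = 0.11 and 0.12). With an offset for transcript length the adjusted p was 0.059 for the cortex response, 0.065 for the difference between the tissues and 0.0086 for the choroid plexus response. The cortex response was not called with a replicate block either. Oligodendrocyte markers in bound RNA summed to 1334 and 1368 TPM in WT and 219.5 and 237 TPM in stabilized cortex, and their part in the Mal levels there was not tested. In choroid plexus bound RNA the same 12 markers summed to 28.3 to 32.9 TPM in WT and 16.2 to 38.5 TPM in stabilized libraries, and Mal-202 alone went from 2.51 and 3.99 to 63.0 and 51.0 TPM.

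Nampt and Grb14 were not called in bound RNA of either tissue. Nampt was at 8.56 and 5.54 TPM in WT and 16.3 and 11.4 TPM in stabilized choroid plexus, a log2 response of 1.0 ± 0.26 (edgeR adjusted p = 0.12, DESeq2 1.03 with 0.033). In the cortex its summed TPM went from 103 and 101 to 22.7 and 14.3, whereas its RPM went from 148 and 96.0 to 93.2 and 78.4, and the fitted response was -0.52 ± 0.25 (adjusted p = 0.27). The choroid plexus minus cortex difference of Nampt was 1.52 ± 0.36 (edgeR adjusted p = 0.070, DESeq2 1.58 with 0.011). Endothelial markers in choroid plexus bound RNA summed to 509 and 631 TPM in WT and 1243 and 856 TPM in stabilized mice, and macrophage and leukocyte markers to 68.5 and 120 against 213 and 213 TPM, and their part in the responses of Nampt and Mal there was not tested. The WT level of Nampt was higher in the cortex, by 2.03 ± 0.27 (adjusted p = 0.00050).

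Grb14 differed from the others in the choroid plexus. Its summed level was not low there in WT, with 43.9 and 25.6 TPM in bound RNA against 16.7 and 20.8 TPM in the cortex (cortex over choroid plexus -1.30 ± 0.31, edgeR adjusted p = 0.012). By the coding Grb14-201 alone the order was the other way, at 6.23 and 6.73 TPM in choroid plexus against 16.7 and 16.5 TPM in cortex. The processed transcript Grb14-202 (682 nt), at 31.0 and 5.65 TPM, held 52.7% of the mean choroid plexus TPM. Stabilized libraries held summed levels of 31.2 and 20.5 TPM in the choroid plexus and 15.4 and 20.5 TPM in the cortex, within or near the WT ranges. Grb14-201 alone was at 8.81 and 5.56 TPM in stabilized choroid plexus. In stabilized cortex it fell to 2.19 and 4.33 TPM, from 88.6% of the gene's TPM in WT to 18.2%, with the rest in shorter transcripts. The cause of this shift was not tested. The log2 responses were 0.33 ± 0.31 (adjusted p = 0.69) and 0.32 ± 0.31 (adjusted p = 0.60), and their difference was 0.01 ± 0.44 (adjusted p = 1.0). With the length offset the choroid plexus response and the difference both turned negative, and neither was called. Bound RNA of the choroid plexus carried much epithelial RNA, with Ttr at 18553 and 19591 TPM in WT and 13255 and 11695 TPM in stabilized libraries, and its part in the level of Grb14 was not tested.

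**Figure D5:**
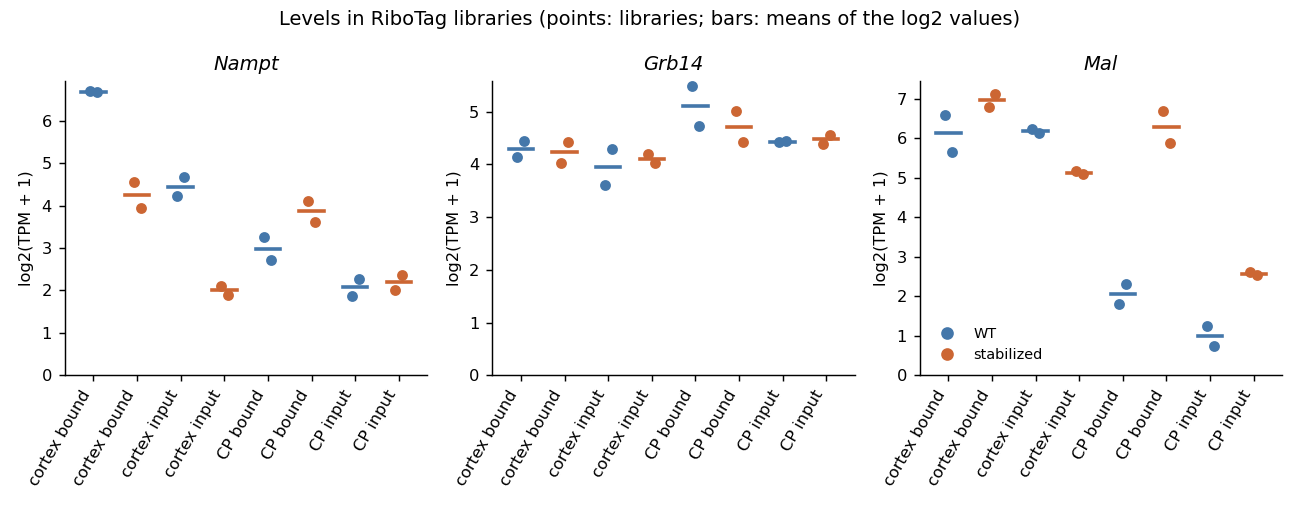
Levels of Nampt, Grb14 and Mal in bound and input RNA of cortex and choroid plexus, as log2(TPM + 1). Each point is a library. Mal in choroid plexus bound RNA goes from 2.51 and 3.99 TPM in WT to 102 and 58.0 TPM in stabilized mice. Summed Grb14 stays within 15.4 to 43.9 TPM in bound RNA of all groups. The coding Grb14-201 alone, not drawn, goes from 16.7 and 16.5 TPM in WT to 2.19 and 4.33 TPM in stabilized cortex bound RNA.

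Input RNA, which comes from all cells of the tissue, was compared in the same way. Mal in choroid plexus input was at 1.39 and 0.669 TPM in WT and 5.06 and 4.77 TPM in stabilized mice, a log2 rise of 2.22 ± 0.17 (edgeR adjusted p = 0.016), where 0.106% of 16085 genes were called. This call was lost with the length offset (adjusted p = 0.21), with the replicate block, without either WT replicate and without stabilized replicate 2. With each library left out the log2 rise was 2.09 to 2.33. In cortex input, where 11.8% were called, it was at 74.4 and 68.5 against 35.0 and 32.9 TPM but at 286 and 239 against 225 and 236 RPM, and the fit gave -0.04 ± 0.15 (adjusted p = 0.86). Markers in cortex input summed to 2733 and 2170 against 633 and 592 TPM for oligodendrocytes and to 2353 and 2694 against 791 and 797 TPM for neurons. Endothelial ones summed to 57.9 and 45.7 against 20.2 and 20.6 TPM, and the part of these levels in the Mal values was not tested. Grb14 in cortex input had an adjusted p of 0.0033 with a log2 response of 0.83 ± 0.12, under the 2-fold threshold of a call. Its transcript Grb14-201 alone fell there, from 9.35 and 9.05 TPM in WT to 1.13 and 1.43 TPM in stabilized mice. Nampt was not called in input of either tissue (-0.25 ± 0.11 in cortex and 0.08 ± 0.11 in choroid plexus, adjusted p = 0.13 and 0.92). With the length offset both were called in cortex input, Grb14 at 1.74 (edgeR adjusted p = 0.0028) and Nampt at -1.21 (adjusted p = 0.014).

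Bound RNA was also set against the input of the same tissue and genotype. In cortex bound RNA the markers of microglia summed to 3929 and 2739.9 TPM in WT, against 102 and 109 TPM in WT input, and to 1206 and 1037 TPM in stabilized mice, against 24.05 and 25.01 TPM in their input. Endothelial markers summed to 1432 and 579.8 TPM in WT and 1113 and 982 TPM in stabilized bound RNA. Neuron markers summed to 1329 and 1681 TPM in WT and 519.5 and 430.4 TPM in stabilized cortex bound RNA. The part of these levels in the cortex values of Nampt and Mal, in bound RNA and in bound over input, was not tested. In stabilized choroid plexus Mal was enriched in bound RNA by a log2 difference of 3.47 ± 0.28 (edgeR adjusted p = 5.6e-06), where 9.35% of 18241 genes were called higher, against 1.31 ± 0.28 in WT (adjusted p = 0.0057), where 15.3% were called in either direction. The WT value was 0.42 with the length offset (adjusted p = 0.56), 1.16 without input replicate 2 (adjusted p = 0.075) and 0.88 without bound replicate 2 (adjusted p = 0.13), none of them called. In cortex it was enriched by 1.10 ± 0.26 in stabilized mice (adjusted p = 0.0062), where 10.1% were called higher, a call lost with the length offset (adjusted p = 0.081), and not called in WT (-0.41 ± 0.25, adjusted p = 0.29), where 11.6% were called in either direction. Nampt was enriched in bound RNA of the cortex in both genotypes, by 1.43 ± 0.18 in WT (adjusted p = 0.00012) and 1.23 ± 0.18 in stabilized mice (adjusted p = 0.00023), and was not called in the choroid plexus. Grb14 was called in none of the 4 comparisons.

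The other genes of the 3 genes' pathways were counted in the same fits. At the 1.25% of all genes called higher in posterior and 0.441% in anterior ECs, lists of this size would hold few or no calls, so nothing is read from a count of 0. Of the other genes of NAD synthesis 11 of 17 were tested in ECs, and 0 were called by edgeR in either lobe or in the cerebellum. Their median log2 response was 0.43 in posterior and 1.15 in anterior ECs, beside 0.01 and 0.06 over all genes. Of 22 genes that use NAD and 34 of the GRB7 family and insulin/IGF signaling 0 were called by edgeR in any of the 3 tissues. In posterior ECs 0, 1 and 7 genes of these 3 lists had an unadjusted p under 0.05 and DESeq2 called 0, 0 and 1 of them. In anterior ECs the unadjusted counts were 1, 1 and 5 and in cerebellum ECs 1, 1 and 1, where DESeq2 called 0 in the anterior lobe and 1, 0 and 1 in the cerebellum. Insr, the insulin receptor that GRB14 binds, was at 48.8 and 61.3 TPM in WT and 20.4 and 17 TPM in stabilized posterior ECs. Grb10, the family member nearest in role to Grb14, was at 61.5 and 69.1 against 34.7 and 36.8 TPM there, above Grb14 in both genotypes, and Grb7 was at most 0.165 TPM. The lower sum of endothelial markers in these stabilized libraries, given above, stands beside these values, and its part was not tested.

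Among the other MARVEL genes 18 of 21 were tested in ECs and 2 were called in posterior ECs, both higher, beside the 1.25% of all genes called higher. Ocln, which encodes the tight junction protein occludin, went from 2.54 and 0.102 TPM to 55.8 and 53.4 TPM (log2 5.58 ± 0.84, edgeR adjusted p = 0.0051). Pllp, which encodes plasmolipin, had 1 read in each WT posterior library and 18.8 and 13.9 TPM in the stabilized ones (adjusted p = 0.0023). The list's median log2 response was 0.80 in posterior ECs, beside 0.01 over all genes, and 0.07 in anterior ECs, beside 0.06. In anterior ECs Ocln was at 0.789 and 2.91 against 5.17 and 4.83 TPM. In choroid plexus bound RNA, where Mal rose, 0 of the other 20 MARVEL genes tested were called by edgeR or DESeq2 (4 at an unadjusted p under 0.05, 0.656% of all genes called higher), and Ocln was at 22.3 and 8.48 against 22.1 and 11.0 TPM. In cortex bound RNA, where 6.32% of all genes were called in either direction, edgeR called 4 of the 20 lower, namely Myadm, Syp (a synaptic vesicle protein of neurons), Cmtm4 and Cmtm6. DESeq2 called 8 there in either direction, adding Mal2, Ocln, Synpr and Sypl, and 9 had an unadjusted p under 0.05. The summed neuron and microglia markers given above for cortex bound RNA were also lower in stabilized than in WT mice, and their part in these calls was not tested. In the same comparison Pnp of NAD use (1.42 ± 0.28, adjusted p = 0.020) and Grb10 (1.21 ± 0.28, adjusted p = 0.038) were called higher. Mall, a close relative of Mal that lies within 50 kb of it, was at most 4.37 TPM in any EC library.

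Over the means of the 12 groups of sorted cells, the 5 genes most like each member by Pearson's r of log2(TPM + 1), among 9779 protein-coding genes, were of mixed kinds. These groups share mice and libraries of one design, and r is given as a description. Those most like Grb14 were Axin2 (0.93), Gpr155 (0.93), Spock2 (0.91), Ocln (0.90) and Tnfrsf19 (0.90). The genes closest to Mal were Rab5if (0.95), Angpt2 (0.92), Rhbdf1 (0.90), Selenop (0.89) and Serhl (0.89). For Nampt they were Ifit1 (0.94), Slc7a1 (0.92), Abhd2 (0.92), A930033H14Rik (0.92) and Oas1a (0.92). Axin2, the closest to Grb14, had mean levels of 35.8 TPM in WT cerebellum ECs, 1.58 and 19.3 TPM in WT and stabilized anterior ECs, and 0.381 and 27.4 TPM in posterior ECs.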

How the data were processed

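RNA-seq measured 40 libraries and ATAC-seq 12. For each RNA library the authors deposited the output of Salmon 0.10.2, namely an estimated count per transcript, not normalized, TPM, which are scaled within the library, and effective lengths. Amplified cDNA was read over 75 bp from 1 end, and strand was not used here. For ATAC-seq the authors deposited MACS2 2.1.1.20160309 peaks called in each library alone after Bowtie2 2.3.2 alignment to mm10 and duplicate removal by Picard, with reads shifted and extended around the transposase cut. The deposited fold enrichment (a ratio to local background) and -log10 q values were used, the deposited -log10 p and score were not. Peak values give no read depth.

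Genes were built by adding their transcripts after GENCODE M21 (GRCm38), and 0.0588% to 0.385% of reads had no matching transcript and were left out. Sums were rounded and tested with edgeR 4.0.16 in R 4.3.3 (TMM, filterByExpr, quasi-likelihood F test, a coefficient per group, Benjamini-Hochberg adjustment over all genes), in fits of all sorted, EC, parenchyma, RiboTag, bound or input libraries. Standard errors are the log2 fold change over the square root of F. Scripts were tested on simulated counts. Nampt, Grb14 and Mal each passed the count filter in all 28 comparisons. In every group the paired libraries differed by more than counting noise (chi-square per degree of freedom 5.60 or more), so n = 2 throughout, and p-values measure only the spread between these pools. The alternatives were DESeq2 1.42.0, RLE, no count filter, a length offset, a replicate block, a block by pool of tissue for ECs against parenchyma and bound against input (chosen after seeing the data), fits of only the groups compared, each library left out, TPM pseudocounts of 0.1 and 1, and other peak thresholds, overlaps and windows (Python 3.11.15, pandas 2.3.3, numpy 2.4.6, scipy 1.17.1, matplotlib 3.10.9). Named genes were the members, called genes of the lists, marker genes that lead a list or are at 0, and the 5 most alike genes per member. Insr, Grb10, Mall and Axin2 were named as relatives, partner and readout whatever their values. The members and lists were chosen with earlier results of these data known.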

Additional observations from a re-analysis of the deposited data

Results flagged for a closer look

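Mal responded more strongly in choroid plexus than in cortex bound RNA, with a log2 difference of 2.94 ± 0.48 (edgeR interaction, adjusted p = 0.022), and this difference between tissues is why it stands here. In the choroid plexus the libraries went from 2.51 and 3.99 TPM to 102 and 58.0 TPM, and in the cortex from 95.2 and 49.4 TPM to 110 and 138 TPM. The difference was called in all 8 fits that left out 1 library, with log2 values of 2.42 to 3.39 and adjusted p from 0.00015 to 0.047. It was not called with an offset for transcript length, at 2.89 and an adjusted p of 0.065. Oligodendrocyte markers in cortex bound RNA summed to 1334 and 1368 TPM in WT and 219.5 and 237 TPM in stabilized mice. Endothelial markers in choroid plexus bound RNA summed to 509 and 631 against 1243 and 856 TPM. The part of these levels in the difference was not tested. In WT cortex Mal was not called in bound over input RNA (-0.41 ± 0.25).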

How the results depend on the processing

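RLE normalization and fits of only the groups compared changed no call and no direction of the members, except that the Nampt difference of WT posterior ECs over parenchyma, -0.05, was 0.03 with only the groups compared. With 2 libraries a group the spread rests on few degrees of freedom, WT posterior ECs held 0 and 2 reads of Grb14, and peak lists carry no read depth. Deviations of same-numbered libraries correlated at -0.21 to 0.14 over all pairs of groups, and at -0.0038 to 0.14 between both fractions of a genotype and tissue. Across genotypes equal numbers mark no shared mice. With the replicate block Mal was no longer called in choroid plexus input (2.22, adjusted p = 0.061) or cortex bound RNA (1.41, adjusted p = 0.052), and no other call of a member changed, while of the GRB7 family and insulin/IGF list 0 genes and of the MARVEL list 3 lower genes were called in cortex bound RNA, against 1 and 4 without the block. Bound and input RNA of 1 number come from a shared homogenate, and ECs and parenchyma from a shared dissociation, as far as equal numbers mark 1 preparation. With the same limit, both pituitary lobes of a genotype and number come from the same mice. With a replicate block by pool, chosen after seeing the data, Mal was called in stabilized cerebellum ECs over parenchyma (1.68, adjusted p = 0.048), and no other call of a member changed. The cause of the following shifts was not tested.

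All values are log2. With the offset for transcript length, Nampt was at 3.0 for the posterior response, 3.26 for posterior minus anterior, 0.96 for WT anterior over posterior, 3.47 for WT cerebellum over posterior ECs, -1.21 in cortex input, and, for ECs over parenchyma, 1.38 in WT anterior, 0.43 in stabilized anterior, -1.18 in WT posterior and 2.0 in stabilized posterior pituitary. Grb14 was at 2.63 for the anterior response, 5.76 for WT anterior over posterior, 4.88 for WT cerebellum over anterior ECs and 1.74 in cortex input. Mal was at 1.80 in cortex bound, 2.16 in choroid plexus input, 2.89 for choroid plexus minus cortex, and, for bound over input, 0.42 in WT choroid plexus and 1.10 in stabilized cortex. Of differences not called in either fit, the offset turned the sign for Grb14 in choroid plexus minus cortex (-1.31), stabilized choroid plexus bound over input (-0.81), choroid plexus bound (-0.36) and posterior parenchyma (-0.43), for Mal in cortex input (0.50) and for Nampt in cerebellum (-0.75) and posterior (-0.14) parenchyma.

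DESeq2 called Grb14 in WT cerebellum ECs over parenchyma (2.09), Mal in cerebellum ECs (1.2), and Nampt for choroid plexus minus cortex (1.58), in choroid plexus bound (1.03) and in anterior parenchyma (1.2). Without the count filter edgeR called Grb14 in WT (2.16) and Mal in stabilized (1.69) cerebellum ECs over parenchyma, Mal in cerebellum ECs (1.18), anterior (1.62) and posterior (2.24) parenchyma, and Nampt in choroid plexus bound (1.03) and for choroid plexus minus cortex (1.54).

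Leaving out each library gave these ranges. Nampt had 2.21 to 2.80 for the posterior response, 0.0093 to 0.58 for WT anterior over posterior, 2.76 to 3.33 for WT cerebellum over posterior ECs and 1.26 to 1.80 for choroid plexus minus cortex, called without WT cortex replicate 2. Grb14 had 8.40 to 13.16 for the posterior and 2.53 to 4.01 for the anterior response, 4.95 to 9.73 for their difference, 3.35 to 8.13 for WT anterior over posterior, 9.53 to 14.31 for WT cerebellum over posterior, -3.66 to -2.18 for stabilized anterior over WT cerebellum ECs, and, for ECs over parenchyma, 1.54 to 3.37 in WT cerebellum (called without parenchyma replicate 2), -10.64 to -5.75 in WT posterior and -0.22 to 1.35 in stabilized anterior pituitary. Mal had 5.31 to 6.69 for the posterior response, 4.26 to 5.63 for posterior minus anterior, 2.53 to 3.9 for WT anterior over posterior, 3.04 to 4.41 for WT cerebellum over posterior, 2.94 to 6.72 for WT posterior ECs over parenchyma, 0.88 to 1.44 for WT choroid plexus bound over input, 2.09 to 2.33 in choroid plexus input, 1.02 to 1.90 in cortex bound and 1.38 to 5.13 in posterior parenchyma. Ranges that span 0, none with a call, were -0.17 to 0.41 for choroid plexus minus cortex, -0.45 to 0.29 for stabilized cortex bound over input, -0.19 to 0.0073 in choroid plexus input, -0.057 to 0.59 in cortex bound and -0.0056 to 0.91 in posterior parenchyma for Grb14. For Mal they were -1.23 to 0.83 for WT cerebellum ECs over parenchyma, -0.64 to 0.30 for WT cortex bound over input, -1.79 to 0.26 in cerebellum parenchyma and -0.21 to 0.13 in cortex input. For Nampt they were -0.080 to 0.47 in cerebellum and -0.054 to 0.41 in posterior parenchyma. Its ranges also spanned 0 for the anterior EC response (-0.27 to 0.034) and for WT posterior ECs over parenchyma (-0.22 to 0.24), both described without a test.

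With a window of 100 kb the gained peaks were 1 per tissue for Grb14, 3 in cerebellum and 4 in posterior ECs for Nampt, and 1 in cerebellum and 8 in posterior ECs for Mal, and with 10 kb Mal had 0 in anterior and 3 in posterior ECs. With fold enrichment and -log10 q over 4 Mal had 2 gained in each lobe and 0 lost in anterior ECs, and Nampt 0 gained in the cerebellum. With replicate 1 alone Mal had 3 gained and 2 lost in anterior and 1 gained in cerebellum ECs, and Nampt 1 gained in anterior ECs. With replicate 2 alone Grb14 had 1 gained in posterior ECs, Mal 1 gained and 1 lost in cerebellum ECs, and Nampt 3 gained in posterior, 2 gained in cerebellum and 1 lost in anterior ECs. Of the TPM folds with a pseudocount and the list counts, 231 stayed and 27 moved.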
